A study of Capra hircus with 2 samples.

Results

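The genes described here are 8 extracellular matrix genes other than collagens, MGP, SPON2, POSTN, LUM, ASPN, SPARC, FBLN1 and MFAP2, in the fetal goat (Capra hircus) ovary. They were taken by symbol from the deposited feature list, where each symbol stood on 1 feature, and they are 8 of 27271 features. RNA of single ovarian cells, captured in droplets, was sequenced at the embryonic stages E125 and E85, named for the day of gestation, with 1 library per stage. Tissue was dissociated with enzymes and cells were barcoded on the 10x Genomics platform, per the labels' protocols. The labels give no genotype, breed or treatment for either stage, and do not say how many fetuses went into a library. The protocol text mentions testes, but the tissue and sex fields name a female ovary at either stage, and those fields were followed. With 1 library per stage no difference could be set against the variation of animals within a stage. There is therefore no test here, and every difference describes these 2 libraries.

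The stroma of an ovary is built by fibroblast-like cells that secrete a scaffold of collagen fibrils, elastic microfibrils and the smaller proteins that sit on them. Perivascular cells, the pericytes and smooth muscle cells that wrap blood vessels, lay down their own share of this material. The 8 genes belong to 4 kinds of matrix protein. MGP (ENSCHIG00000017819) encodes matrix Gla protein, a small vitamin K-dependent inhibitor of calcification made by smooth muscle and cartilage. SPON2 (ENSCHIG00000018579), POSTN (ENSCHIG00000008249) and SPARC (ENSCHIG00000020972) encode proteins that act on cells from within the matrix: spondin 2 and periostin, which both bind integrins, and the calcium- and collagen-binding protein osteonectin. LUM (ENSCHIG00000023831) and ASPN (ENSCHIG00000015608) encode lumican and asporin, small leucine-rich repeat proteins that bind collagen fibrils. FBLN1 (ENSCHIG00000017977) and MFAP2 (ENSCHIG00000018426) encode fibulin 1, found in elastic fibres and basement membranes, and a glycoprotein that binds fibrillin microfibrils.

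The E125 library held 8346 cell barcodes and 49692252 unique molecular identifiers (UMIs, 1 for each captured molecule), and the E85 library 4397 barcodes and 17748948 UMIs. After filtering, 7023 and 3827 cells remained, at median depths of 3196 and 3101 UMIs. The libraries shared 13 barcodes, 10 of them among kept cells. Cells were clustered without the 8 genes, and no marker used to name a cluster was among them. Stromal-like cells numbered 4592 at E125 and 2784 at E85, and perivascular-like cells 141 and 32. Levels are given in CPM, the UMIs of a gene per 1000000 UMIs of its class. Classes were named from listed markers, so the levels of those markers describe the classes and do not test their names. In stroma DCN, the gene of decorin, had 3723 CPM at E125 and 3020 CPM at E85. All 12 listed stromal markers were detected there in both libraries. All 12 perivascular markers, among them RGS5, ACTA2 and MYH11, were detected in perivascular-like cells of both libraries, with summed levels of 10412 CPM at E125 and 10509 CPM at E85. Brackets after a level, a ratio or a share give its exact 95% interval, which covers counting error only.

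The first comparison asked in which cell classes each gene was found. Stromal-like or perivascular-like cells held the highest level of 7 of the 8 genes at E125, where 17.6% of all features with 50 or more UMIs in that library had their highest class there. At E85 they held the highest level of 8 of 8, against 25% of all features. The 8 genes were chosen with earlier results of these data known, so these counts describe them and are no test. ASPN was the exception at E125. It reached 569 CPM (467 to 687) in 74 glia-like cells, and only 3 such cells were found at E85, too few to give a level. The genes split between the classes. SPON2, LUM, FBLN1 and MFAP2 were highest in stroma in both libraries, and MGP, POSTN and SPARC were highest in perivascular-like cells in both.

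**Figure D1:**
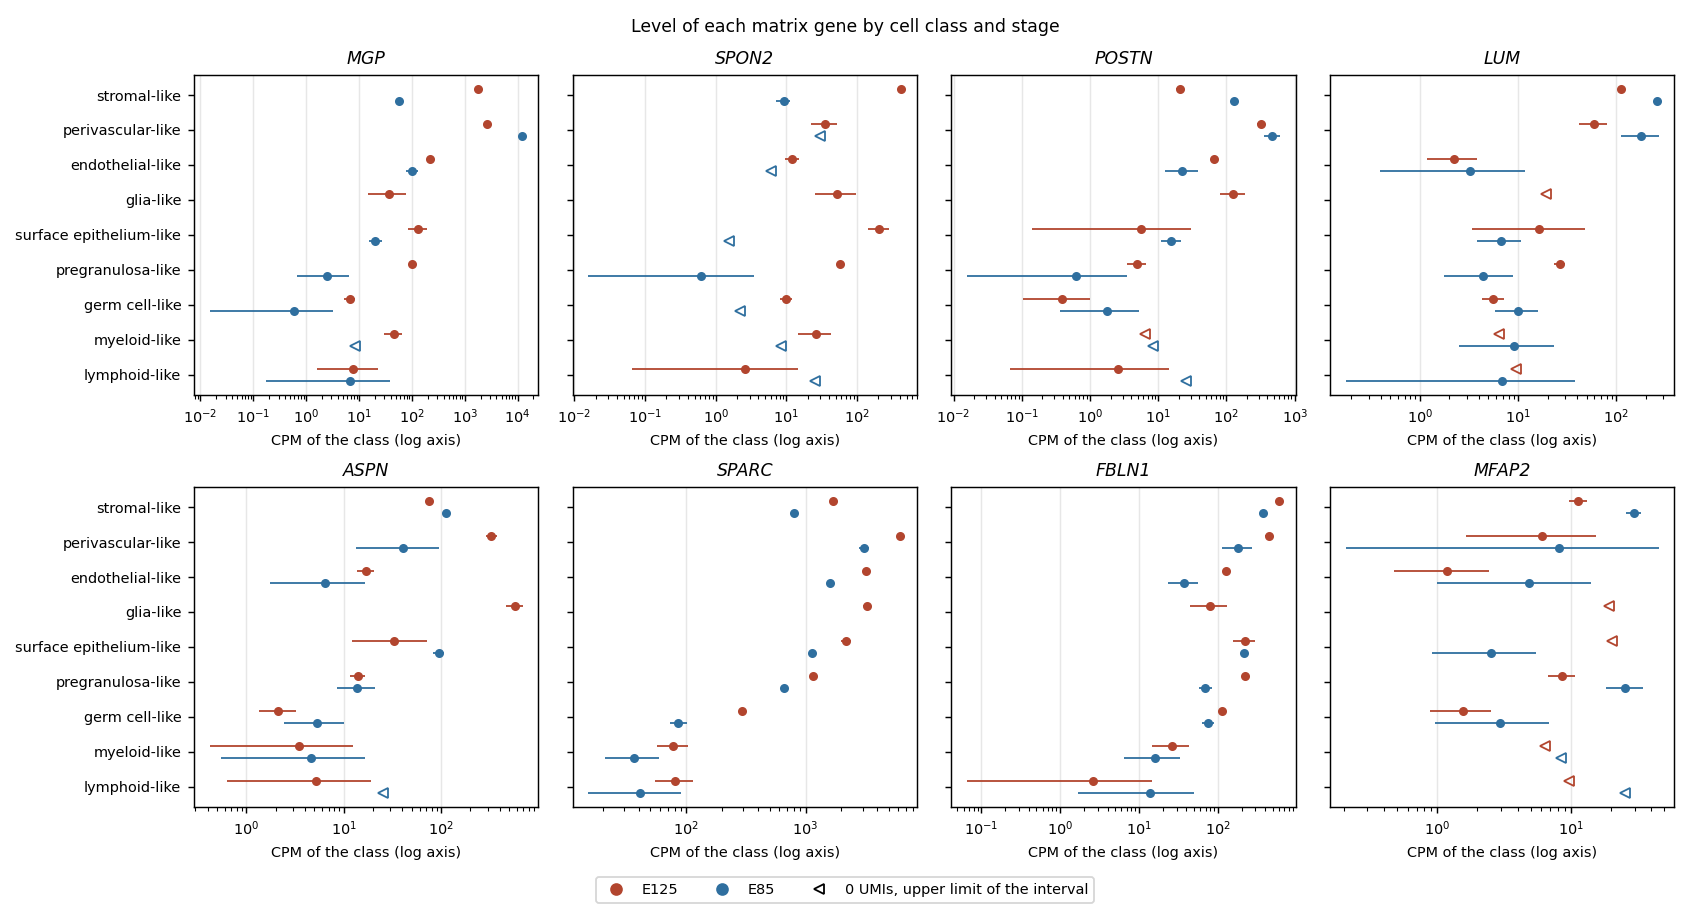
Level of each of the 8 matrix genes in 9 cell classes at E125 (red) and E85 (blue), in CPM of the class on log axes that differ between panels. Points are class sums from 1 library, bars exact 95% Poisson intervals, and open triangles mark classes with 0 UMIs at the upper limit of the interval. MGP in stroma stands at 1798 CPM at E125 and 56.8 CPM at E85, while in perivascular-like cells it stands at 2698 CPM and 11904 CPM.

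MGP, the calcification inhibitor, had 2698 CPM (2574 to 2826) in perivascular-like cells at E125, followed by stroma at 1798 CPM (1777 to 1820), endothelial-like cells at 216 CPM and surface-epithelium-like cells at 132 CPM. At E85 it had 11904 CPM (11301 to 12531) in perivascular-like cells, followed by endothelial-like cells at 102 CPM (78.4 to 131) and stroma at 56.8 CPM (51.7 to 62.1). Stroma held 86.2% of the MGP UMIs of the 9 named classes and unnamed clusters together at E125 and 21.1% at E85, and perivascular-like cells 5.87% and 65.8%. Most MGP molecules thus came from stroma in the E125 library and from 32 perivascular-like cells in the E85 library.

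SPON2 had 412 CPM (401 to 422) in stroma at E125, followed by surface-epithelium-like cells at 204 CPM (144 to 281, 24 cells), pregranulosa-like cells at 57.3 CPM and glia-like cells at 52.7 CPM. The intervals of those last 2 classes overlapped, and pregranulosa-like cells had 19.7 CPM without cluster 8, a cluster of dividing cells described below. At E85 it had 9.10 CPM (7.15 to 11.4) in stroma and 1 UMI in the other named classes of 15 or more cells together. Periostin's gene POSTN had 322 CPM (280 to 368) in perivascular-like cells at E125, followed by glia-like cells at 127 CPM (81.1 to 188), endothelial-like cells at 65.4 CPM and stroma at 20.8 CPM. At E85 it had 473 CPM (359 to 612) in perivascular-like cells, 129 CPM (122 to 137) in stroma and 22.7 CPM in endothelial-like cells. Stroma ranked second of the classes for POSTN at E85, but below glia-like and endothelial-like cells at E125.

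LUM had 113 CPM (108 to 119) in stroma and 59.2 CPM (42.1 to 80.9) in perivascular-like cells at E125. At E85 it had 261 CPM (251 to 273) and 180 CPM (112 to 272) in those classes, whose intervals overlapped, and 10.0 CPM or less in the other named classes. ASPN followed its glia-like level with 328 CPM (286 to 375) in perivascular-like cells and 75.1 CPM (70.7 to 79.7) in stroma at E125. At E85 it had 113 CPM (106 to 121) in stroma, 94.4 CPM (82.5 to 108) in surface-epithelium-like cells and 40.8 CPM (13.2 to 95.2) in perivascular-like cells, and each of these neighbours overlapped in their intervals. The 2 leucine-rich repeat genes therefore differed in where they were highest at E125, lumican in stroma and asporin in glia-like and perivascular-like cells.

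SPARC, the gene of osteonectin, had 6155 CPM (5967 to 6347) in perivascular-like cells at E125, then 3279 CPM (3026 to 3547) in glia-like and 3183 CPM (3138 to 3229) in endothelial-like cells, which overlapped. Surface-epithelium-like cells followed at 2194 CPM, stroma at 1690 CPM and pregranulosa-like cells at 1147 CPM. The order at E85 was the same without glia, with 3092 CPM in perivascular-like cells, 1608 CPM in endothelial-like cells, 1133 CPM in surface-epithelium-like cells, 801 CPM in stroma and 666 CPM in pregranulosa-like cells. FBLN1 had 602 CPM (590 to 615) in stroma, 449 CPM (400 to 504) in perivascular-like cells and 222 CPM in pregranulosa-like cells at E125. At E85 it had 376 CPM (363 to 390) in stroma, 213 CPM (195 to 233) in surface-epithelium-like cells and 180 CPM (112 to 272) in perivascular-like cells, the last 2 overlapping. MFAP2, whose protein binds microfibrils, had 11.3 CPM (9.64 to 13.2) in stroma and 8.55 CPM (6.71 to 10.7) in pregranulosa-like cells at E125, and 29.5 CPM (25.9 to 33.4) and 25.5 CPM (18.3 to 34.6) at E85. These 2 classes overlapped in both libraries.

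Immune cells, which make little fibrillar matrix, were taken as background. Lymphoid-like cells (87 at E125 and 25 at E85) held 7.84 CPM of MGP at E125 (3 UMIs) and 6.90 CPM at E85 (1 UMI), and 81.0 CPM and 41.4 CPM of SPARC. Myeloid-like cells held 45.1 CPM of MGP at E125 and 0 UMIs at E85, and 78.1 CPM and 36.6 CPM of SPARC. The number of MGP UMIs per SPARC UMI was 1.06 in stroma, 0.438 in perivascular-like and 0.0679 in endothelial-like cells at E125. At E85 it was 0.0709, 3.85 and 0.0634 in the same classes. In myeloid-like cells it was 0.578 at E125, on 26 MGP and 45 SPARC UMIs, and 0 at E85. In lymphoid-like cells it was 0.0968 and 0.167, on 3 MGP UMIs and 1 MGP UMI. The part of free RNA in these levels was not tested.

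The second comparison asked how the genes differed in stroma between the stages. A gene was counted as measured with 50 or more UMIs summed over both libraries, and as higher or lower at 2-fold. All 8 genes were measured in stroma, and MGP, SPON2 and SPARC were higher by 2-fold or more at E125, while POSTN, LUM and MFAP2 were at least 2-fold lower. That is 3 of 8 higher, against 17.8% of 10135 measured features, and 3 of 8 lower, against 12.2%. The median log2 ratio of the 8 genes was 0.04, and that of all measured features was -0.04, so the genes divided between both directions. The count of higher genes depends on SPARC, which lay close to the 2-fold limit.

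MGP in stroma had 26093 UMIs at E125 (1798 CPM) and 468 UMIs at E85 (56.8 CPM), a ratio of 31.7 (28.9 to 34.8). SPON2 had 5973 UMIs at E125 (412 CPM) and 75 UMIs at E85 (9.10 CPM), a ratio of 45.3 (36.0 to 57.6). These 2 ratios lay above those of 99.69% and 99.84% of measured features. SPARC had 1690 CPM at E125 and 801 CPM at E85, a ratio of 2.11 (2.05 to 2.17). FBLN1 had 602 CPM at E125 and 376 CPM at E85, a ratio of 1.60 (1.54 to 1.67) that did not reach 2-fold.

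POSTN had 302 UMIs (20.8 CPM) in E125 stroma and 1067 UMIs (129 CPM) in E85 stroma, 6.22-fold lower at E125 (5.47 to 7.09). Only 0.93% of measured features had a lower ratio. LUM had 113 CPM at E125 and 261 CPM at E85 and was 2.31-fold lower (2.17 to 2.47). MFAP2 had 164 UMIs (11.3 CPM) at E125 and 243 UMIs (29.5 CPM) at E85 and was 2.61-fold lower (2.13 to 3.20). ASPN had 75.1 CPM at E125 and 113 CPM at E85, 1.505-fold lower (1.38 to 1.64), short of the limit. The integrin-binding genes thus split, with SPON2 higher and POSTN lower at E125.

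**Figure D2:**
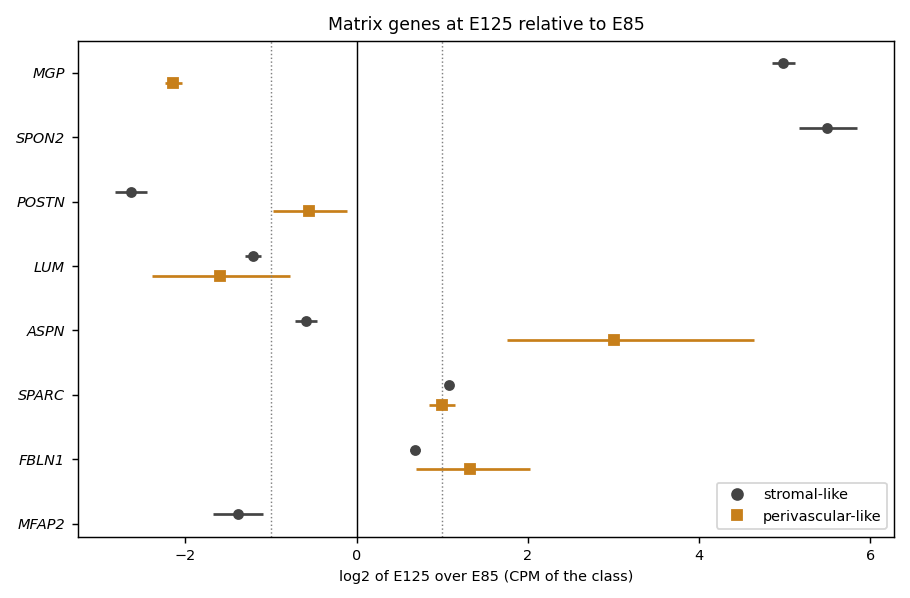
Log2 ratio of E125 over E85 for the 8 matrix genes in stromal-like cells (grey circles) and perivascular-like cells (orange squares), from class sums of 1 library per stage with exact 95% conditional intervals. Dotted lines mark 2-fold. In stroma MGP (4.99) and SPON2 (5.50) lie far right and POSTN (-2.64) far left, while MGP in perivascular-like cells lies at -2.14. SPON2 and MFAP2 had too few UMIs in perivascular-like cells to be drawn.

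Cell quality and other classes' markers were set beside these ratios. Median depth in stroma was 2819 UMIs at E125 and 2752 UMIs at E85, and the median share of mitochondrial UMIs 3.27% and 3.76%. The perivascular markers summed to 809 CPM in E125 stroma and 507 CPM in E85 stroma, with 12 of 12 detected in both. Of the genes that respond to enzymatic dissociation, FOS had 65.9 CPM at E125 and 272 CPM at E85, 4.13-fold lower, and JUN had 581 CPM and 102 CPM, 5.68-fold higher. HSPA8, a heat shock gene, had 283 CPM at E125 and 572 CPM at E85, 2.02-fold lower, while the heat shock genes HSP90AA1 (2920 and 2445 CPM) and HSPH1 (92.4 and 166 CPM) lay within 2-fold. The part of these in the ratios of the 8 genes was not tested. Stage and library cannot be told apart.

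In perivascular-like cells, 6 of the 8 genes were measured. ASPN and FBLN1 were higher by 2-fold or more at E125, 2 of 6 against 22.9% of 2098 measured features, and MGP and LUM were at least 2-fold lower, 2 of 6 against 5.77%. MGP had 1777 UMIs in 141 cells at E125 (2698 CPM) and 1459 UMIs in 32 cells at E85 (11904 CPM), and was 4.41-fold lower at E125 (4.11 to 4.73). One E85 cell supplied 26.7% of the E85 UMIs, and without it the E85 level was 10506 CPM. MGP was detected in 123 of 141 perivascular-like cells at E125 and in 32 of 32 at E85. The direction of MGP was therefore opposite in stroma and in perivascular-like cells, though the difference between the 2 classes was not tested.

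ASPN had 216 UMIs in perivascular-like cells at E125 (328 CPM) and 5 UMIs at E85 (40.8 CPM), a ratio of 8.04 (3.39 to 25.01). The 5 E85 UMIs came from 2 cells, and without the cell that held 60% of them the E85 level was 16.8 CPM. FBLN1 had 296 UMIs (449 CPM) at E125 and 22 UMIs (180 CPM) at E85, a ratio of 2.50 (1.62 to 4.06). LUM had 39 UMIs (59.2 CPM) at E125 and 22 UMIs (180 CPM) at E85, 3.03-fold lower (1.71 to 5.24). This fold ran from 1.65 to 6.26 over 8 alternative settings and missed 2-fold with a mean over cells, and in the others run LUM had too few UMIs to be measured. SPARC had 6155 CPM at E125 and 3092 CPM at E85, a ratio of 1.99 (1.79 to 2.22), and POSTN had 322 CPM and 473 CPM, 1.47-fold lower (1.08 to 1.97). When every cell was thinned to 2000 UMIs, the log2 ratio of POSTN was 0.15, so no direction is read for it. SPON2 had 23 UMIs at E125 and 0 UMIs at E85, and MFAP2 had 4 UMIs and 1 UMI, too few for a comparison. Median depth in the class was 2232 UMIs at E125 and 2919.5 UMIs at E85, the median mitochondrial share 3.60% and 5.53%, and the stromal markers summed to 4647 CPM and 3410 CPM, with 12 of 12 and 8 of 12 detected. Their part in these ratios was not tested.

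The stromal-like cells of the 2 libraries fell in different clusters. At E125, 1726 cells were in cluster 1 (led by CRISP3, MGP and COL12A1), 1329 in cluster 2 (CCN3, LMCD1 and IGFBP5), 829 in cluster 3 (DLK1, IGFBP3 and PENK) and 498 in cluster 7 (CCL11, CHODL and CXCL10). At E85, 1848 cells were in cluster 0 (CA3, GRIN2B and ITIH5), 603 in cluster 5 (LRRN3, PENK and INHBA) and 108 in cluster 8 (TOP2A, a gene of dividing cells). Clusters 0, 1, 2, 3, 5 and 7 each held almost only cells of 1 library and may stand for that library and not for a cell type. Cluster 8 also held 220 E125 cells, which took the pregranulosa-like name. Clusters 13, led by interferon-induced genes such as ISG15, and 15, led by DNA replication genes such as RRM2, held stromal cells of both.

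Within E125 stroma, cluster 3 stood apart. Its POSTN level was 91.6 CPM, against 1.97 to 9.52 CPM in the other stromal clusters, and 46.6-fold (21.1 to 128) that of cluster 2. LUM had 332 CPM there, 14.8-fold (12.4 to 17.9) its level of 22.4 CPM in cluster 1, and ASPN had 255 CPM, 9.67-fold (8.12 to 11.6) its level of 26.3 CPM in cluster 1. SPARC had 3422 CPM in cluster 3 and 949 CPM in cluster 1, 3.61-fold apart. MGP ran the other way, with 253 CPM in cluster 3 and 2847 CPM in cluster 1, an 11.3-fold gap. Cluster 3 also had COL1A1 and COL1A2, the genes of type I collagen, among its 5 leading genes.

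The remaining genes varied less among the E125 stromal clusters. SPON2 ran from 246 CPM in cluster 15 to 594 CPM in cluster 3, and FBLN1 from 429 CPM in cluster 13 to 809 CPM in cluster 7. MFAP2 had 13.8 CPM in cluster 1 and 0 UMIs in cluster 13, and its intervals overlapped between clusters 1, 2 and 3. Cluster 7, led by the chemokine gene CCL11, had intermediate levels of MGP (1082 CPM) and LUM (154 CPM). In clusters 1 and 13, where MGP was highest, LUM and SPARC had their lowest levels of the E125 stromal clusters.

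**Figure D3:**
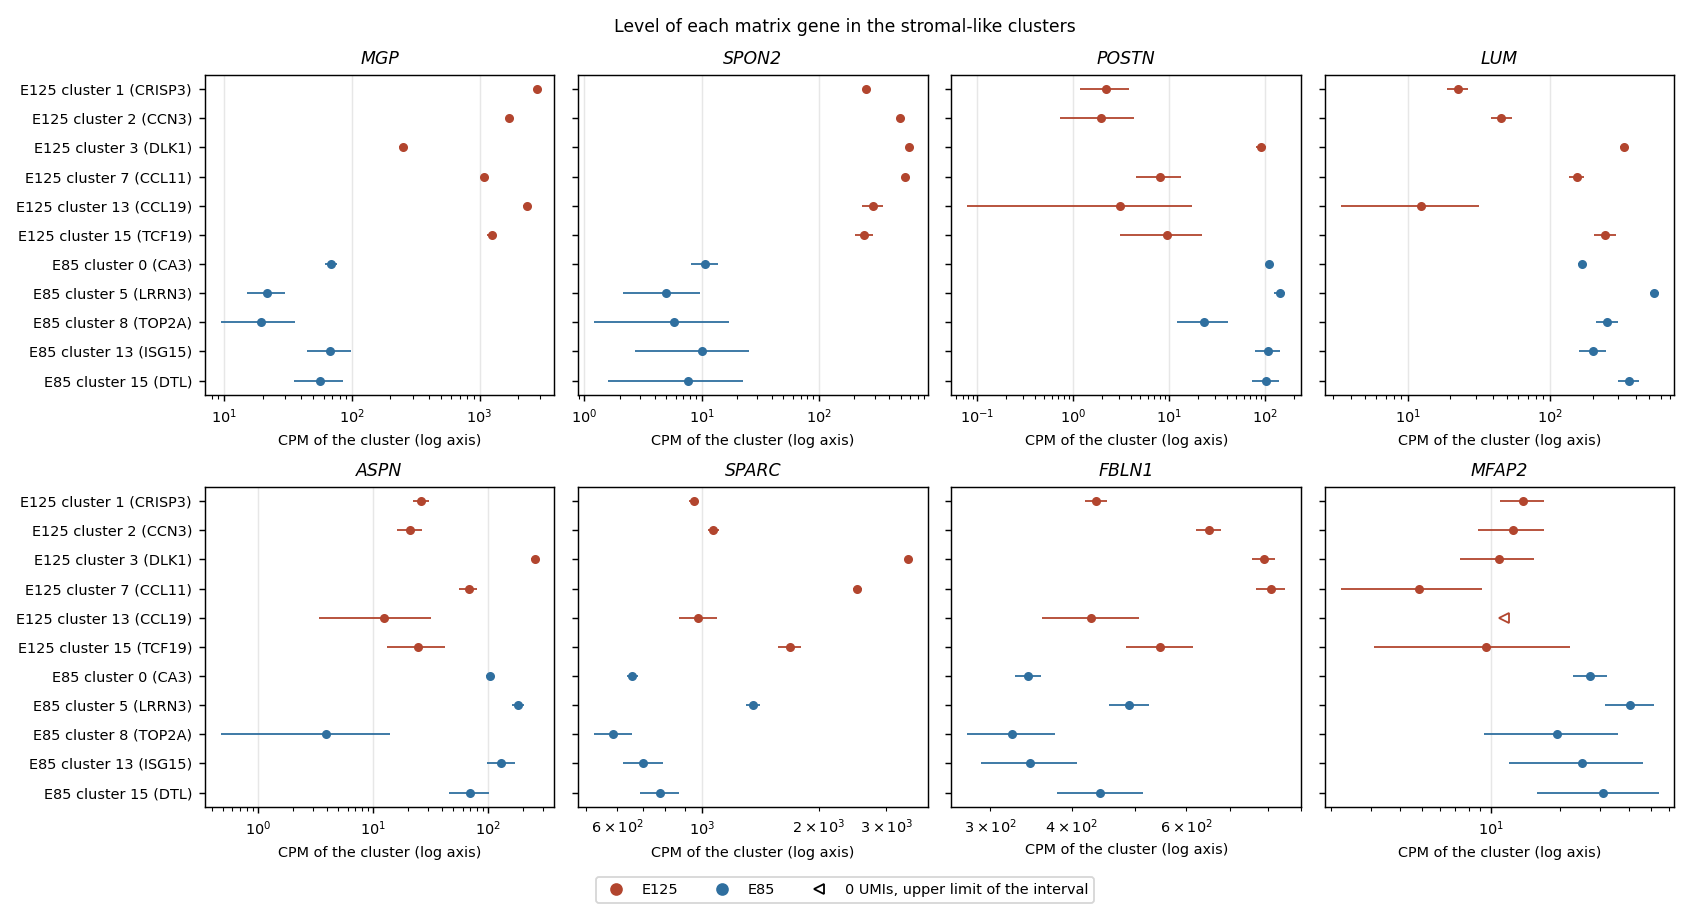
Level of each of the 8 matrix genes in the stromal-like clusters at E125 (red, upper rows) and E85 (blue, lower rows), in CPM of the cluster on log axes that differ between panels, each cluster with a leading gene in brackets. Points are sums over the cells of a cluster in 1 library and bars exact 95% Poisson intervals. E125 cluster 3 is highest for POSTN, LUM, ASPN, SPARC and SPON2 and lowest for MGP among the E125 clusters.

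E85 stroma had a like arrangement on a smaller scale for LUM, SPARC, ASPN, POSTN and MGP, but not for SPON2 and MFAP2. Cluster 5, which shared the leading genes PENK, INHBA, COL1A1, ACTG2 and LUM with E125 cluster 3, had LUM at 543 CPM, 3.23-fold (2.94 to 3.55) its level in cluster 0, which follows in part from its being a leading gene, and SPARC at 1354 CPM, 2.06-fold (1.95 to 2.17). ASPN had 183 CPM there and was 1.75-fold (1.52 to 2.02) its level in cluster 0, and POSTN had 143 CPM and was 1.28-fold (1.10 to 1.49). MGP was again lower there, with 21.6 CPM in cluster 5 and 68.9 CPM in cluster 0. The dividing cells of cluster 8 had 3.90 CPM of ASPN on 2 UMIs and 23.4 CPM of POSTN, below cluster 0 at 104 CPM and 112 CPM.

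Ratios within clusters were compared with those of the whole class. In cluster 13, with 102 cells at E125 and 122 at E85, the ratio was 35.1 (23.9 to 53.6) for MGP and 28.9 (10.9 to 108) for SPON2. POSTN there had 1 UMI at E125 and 43 UMIs at E85, 34.6-fold lower with an interval of 5.89 to 1400, and LUM had 12.4 CPM at E125 and 200 CPM at E85, 16.1-fold lower (6.05 to 60.6). ASPN was 10.5-fold lower (3.85 to 39.9) in cluster 13 and 2.81-fold lower (1.40 to 5.93) in cluster 15. In cluster 15, with 105 and 94 cells, MGP had a ratio of 22.0 (14.4 to 35.4), SPON2 31.8 (10.6 to 156) and SPARC 2.17 (1.90 to 2.48), and POSTN was 10.8-fold lower (4.27 to 35.1). The directions of MGP, SPON2, POSTN, LUM, ASPN, SPARC and MFAP2 in both clusters were those of the whole stroma, though neither size nor direction was tested.

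When E125 cluster 3 was set against E85 cluster 5, a pair chosen after the clusters were seen for shared leading genes, LUM among them, the gap in POSTN was narrower. POSTN had 91.6 CPM in E125 cluster 3 and 143 CPM in E85 cluster 5, 1.56-fold lower (1.30 to 1.87), against 6.22-fold over all stroma. LUM had 332 CPM in E125 cluster 3 and 543 CPM in E85 cluster 5, 1.63-fold lower (1.49 to 1.79). ASPN turned, with 255 CPM in E125 cluster 3 and 183 CPM in E85 cluster 5, a ratio of 1.39 (1.21 to 1.60). MGP had a ratio of 11.7 (8.34 to 16.9), SPON2 of 121 (61.1 to 280, on 8 UMIs at E85) and SPARC of 2.53 (2.41 to 2.65), and MFAP2 was 3.75-fold lower (2.41 to 5.95). FBLN1 had a ratio of 1.61 (1.49 to 1.75). ASPN thus ran opposite to the whole stroma in this chosen pair, but not in clusters 13 and 15, which held cells of both libraries.

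The share of cells with a UMI of each gene was compared after thinning every cell to 2000 UMIs, which left 3497 stromal-like cells at E125 (1095 shallower cells left out) and 2111 at E85 (673 left out). MGP was detected in 75.1% of E125 cells (73.6 to 76.5) and 5.73% of E85 cells (4.78 to 6.81), and SPON2 in 47.2% (45.6 to 48.9) and 1.99% (1.44 to 2.68). SPARC was detected in 84.5% of E125 cells and 69.6% of E85 cells, and FBLN1 in 63.1% and 49.5%. The other 4 genes were found in fewer cells at E125. LUM was detected in 9.12% of E125 cells (8.19 to 10.1) and 19.9% of E85 cells (18.3 to 21.7), ASPN in 9.52% and 16.8%, POSTN in 1.29% (0.940 to 1.72) and 5.68% (4.74 to 6.76), and MFAP2 in 2.37% and 5.78%. Without thinning the shares kept this order, for example 76.3% at E125 and 7.33% at E85 for MGP.

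Immune cells set the background for these shares. MGP was detected in 1.30% of 77 E125 lymphoid-like cells and 4.35% of 23 E85 lymphoid-like cells, and in 4.55% of 88 E125 myeloid-like cells and 0 of 52 at E85, which allows a share of up to 5.77%, taking 3 cells as the limit of a count of 0. The E85 stromal share of MGP, 5.73%, lies just below that limit and is not read as above background, although its level there was 56.8 CPM against 6.90 CPM in lymphoid-like cells. That lymphoid-like level rests on 1 UMI (0.17 to 38.4 CPM), and 0 UMIs in E85 myeloid-like cells allow up to 8.43 CPM. The E125 stromal share of POSTN, 1.29%, likewise lies below the 3.90% that 0 of 77 lymphoid-like cells allows. The E85 stromal shares of POSTN and SPON2 also lie below 5.77%, as E85 myeloid-like cells held 0 UMIs of either gene. That of MFAP2 lies at this limit, and its E125 stromal share lies below 3.90%, with 0 UMIs in E125 lymphoid-like cells. None of these shares is read as above background, as so few immune cells set a wide limit. Some levels stood higher. POSTN had 129 CPM (122 to 137) in E85 stroma, where myeloid-like cells allow 8.43 CPM and lymphoid-like cells 25.5 CPM. In E125 stroma it had 20.8 CPM (18.5 to 23.3), where they allow 6.40 CPM and 14.6 CPM. MFAP2 had 29.5 CPM (25.9 to 33.4) in E85 stroma, under the same E85 limits as POSTN. SPON2 in E85 stroma, at 9.10 CPM (7.15 to 11.4), did not clear them. Median depths before thinning were 3247 UMIs in E125 and 3096 UMIs in E85 stroma, against 4470 and 4875 UMIs in lymphoid-like cells. In perivascular-like cells, of which 82 at E125 and 21 at E85 had that depth (59 and 11 left out), MGP was detected in 93.9% and 95.2%, SPARC in 100% of both, and ASPN in 35.4% (25.1 to 46.7) and 9.52% (1.18 to 30.4). The level of MGP per perivascular-like cell thus differed between the libraries while nearly all of these cells held it in both.

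**Figure D4:**
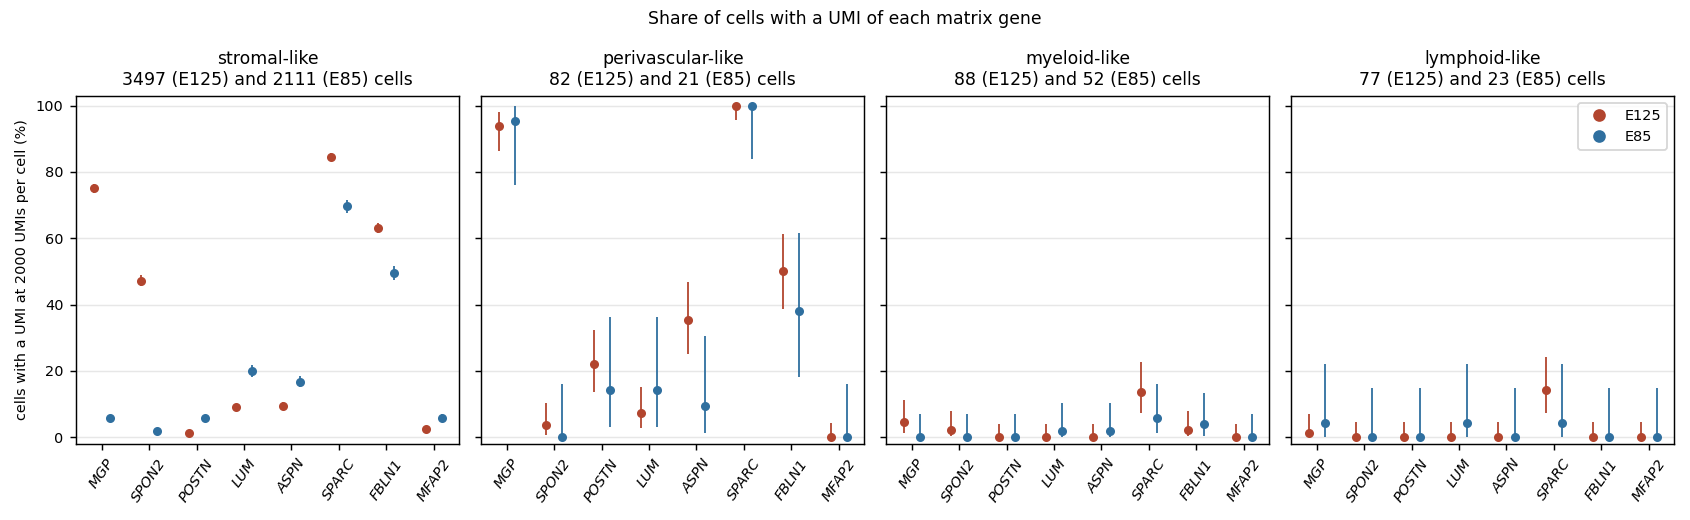
Share of cells with at least 1 UMI of each of the 8 matrix genes, in percent, after thinning every cell to 2000 UMIs, at E125 (red) and E85 (blue) in stromal-like, perivascular-like, myeloid-like and lymphoid-like cells. Points are shares in 1 library and bars exact 95% Clopper-Pearson intervals. In stroma MGP stands at 75.1% at E125 and 5.73% at E85, and in perivascular-like cells at 93.9% and 95.2%.

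POSTN and MGP in E85 stroma came from few cells. POSTN UMIs were found in 82 of 4592 E125 stromal-like cells and 184 of 2784 E85 cells, and MGP UMIs in 3504 and 204 cells. The 184 E85 cells with POSTN held 962 CPM of LUM, against 205 CPM in the E85 stromal-like cells without it, and 1546 CPM of SPARC against 741 CPM. Perivascular markers summed to 910 CPM in those cells and 475 CPM in the cells without POSTN. At E85, 25.5% of the cells with POSTN lay in cluster 5 and 59.2% in cluster 0, against 21.4% and 66.9% of those without. Of the 82 E125 cells with POSTN, 65.9% lay in cluster 3, against 17.2% of those without. Perivascular markers summed to 1522 CPM in these 82 cells and 792 CPM in the E125 stromal-like cells without POSTN. The 204 E85 cells with MGP held 592 CPM of POSTN, against 79.0 CPM in those without, and 616 CPM of perivascular markers against 496 CPM. The part of perivascular RNA in these cells was not tested.

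Detection in the same cell followed this pattern at 2000 UMIs. At E85, LUM was found in 60.0% (50.7 to 68.8) of the stromal-like cells with POSTN and 17.5% (15.9 to 19.3) of those without. At E125 the shares were 35.6% (21.9 to 51.2) and 8.78% (7.85 to 9.77). MGP was found in 49.2% (43.6 to 54.8) of E125 stromal-like cells with LUM and 77.7% (76.2 to 79.1) of those without, and in 51.4% (45.8 to 56.8) of those with ASPN and 77.6% (76.1 to 79.0) of those without. MGP was also found in fewer E125 stromal-like cells with SPARC (72.1%, against 91.0% without), SPON2 (69.1% against 80.4%) and FBLN1 (72.0% against 80.2%). In each of these pairs the 2 intervals did not overlap, but for MGP with POSTN or MFAP2 at E125 they overlapped. For MGP with LUM at E85 they also overlapped, at 6.41% (4.27 to 9.19) of cells with LUM and 5.56% (4.52 to 6.76) of those without. The same held for ASPN at E85, at 6.50% (4.16 to 9.59) of cells with it and 5.58% (4.55 to 6.76) of those without.

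Over all classes, the SPARC ratio lay between 1.72 and 3.43, but SPARC was measured in 7 of the 8 and passed 2-fold in 3 of them, stromal-like, germ-cell-like and myeloid-like cells. MFAP2 was at least 2-fold lower in the 2 classes where it was measured, stromal-like and pregranulosa-like cells. In endothelial-like cells (758 at E125 and 87 at E85), MGP, SPON2, POSTN, ASPN and FBLN1 were higher by 2-fold or more, 5 of 6 measured against 20.2% of 7035 features, and 0 of 6 were lower, against 7.38%. POSTN had 65.4 CPM at E125 and 22.7 CPM at E85, a ratio of 2.88 (1.70 to 5.33), and FBLN1 had 128 CPM and 37.3 CPM, a ratio of 3.43 (2.27 to 5.44). SPARC had 3183 CPM and 1608 CPM, a ratio of 1.98 (1.86 to 2.11). SPON2 had 71 UMIs at E125 and 0 UMIs at E85, at least 2.48-fold higher against a floor of 3 UMIs, and with exact counting error the ratio could be as low as 1.97. The interval of ASPN, with 99 UMIs and 4 UMIs, reached from 0.98 to 9.72.

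The endothelial-like class was not uniform at E125. Cluster 4, with 667 cells led by CA4, VWF and ROBO4, had 3491 CPM of SPARC. Cluster 20, with 63 cells led by CCL21, FLT4 and PROX1, genes known from lymphatic vessels, had 112 CPM, 31.2-fold less (23.8 to 41.7). MGP had 244 CPM in cluster 4 and 16.9 CPM in cluster 20, a 14.4-fold gap (7.30 to 33.5), whereas POSTN had 57.2 CPM in cluster 4 and 122 CPM in cluster 20. ASPN had 97 UMIs in cluster 4 and 0 UMIs in cluster 20.

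Pregranulosa-like cells surround the oocytes. In them, MGP, SPON2, LUM and FBLN1 passed 2-fold upward, 4 of 7 measured against 18% of 7933 features, and MFAP2 was lower, 1 of 7 against 9.98%. MGP had 101 CPM in 815 cells at E125 and 2.49 CPM in 258 cells at E85, but 220 of the E125 cells formed cluster 8, led by TOP2A. That cluster held 444 CPM of MGP and 141 CPM of LUM. Without it MGP had 26.7 CPM at E125, and LUM 1.83 CPM in place of 26.7 CPM, below its 4.35 CPM at E85. FBLN1 had 222 CPM at E125 (173 CPM without cluster 8) and 69.6 CPM at E85, a ratio of 3.19 (2.63 to 3.89). MFAP2 had 8.55 CPM at E125 (7.45 CPM without cluster 8) and 25.5 CPM at E85, 2.98-fold lower (1.98 to 4.42).

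Germ-cell-like cells (137 at E125 and 68 at E85) held each of the 8 genes at a lower level than stroma in both libraries. Of the 5 genes measured there, MGP, SPON2 and SPARC were higher by 2-fold or more at E125, 3 of 5 against 19.5% of 9075 measured features, and 0 of 5 were lower, against 17.6%. Median depth in this class was 43526 UMIs at E125 and 4116 UMIs at E85, so stage, library and depth cannot be told apart here. The part of depth in the ratios was not tested. SPARC had 295 CPM at E125 and 86.1 CPM at E85, a ratio of 3.43 (2.90 to 4.07). MGP had 69 UMIs (6.69 CPM) at E125 and 1 UMI at E85, a ratio of 11.4 (1.97 to 455), and SPON2 had 101 UMIs and 0 UMIs, at least 5.54-fold higher against the same floor, with 4.42 as the lower end of the exact interval. The E125 level of MGP there overlapped in its interval with that of lymphoid-like cells. Surface-epithelium-like cells numbered 24 at E125 and 279 at E85, but 339 at either stage when each library was clustered on its own, and E125 cluster 9, 285 cells that took no name, held 27.0 CPM of MGP. There MGP was higher at E125, 1 of 4 measured genes against 9.76% of 4762 measured features, with 132 CPM and 20.5 CPM, and ASPN was lower, 1 of 4 against 20.1%, with 33.1 CPM and 94.4 CPM. In myeloid-like cells SPARC was the 1 measured gene and was higher, 1 of 1 against 16.8% of 2112 measured features, with 0 of 1 lower against 8.76%.

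The third comparison set the 8 genes beside other genes of the matrix in stroma, in lists that leave them out. Of 39 measured glycoproteins and proteoglycans, 15 were higher by 2-fold or more at E125 and 2 lower, where 17.8% of all measured features were higher and 12.2% lower, with a median log2 ratio of 0.61 where that of all features was -0.04. The thrombospondin genes THBS2 and THBS1, whose products bind cells and matrix, had 244 CPM at E125 and 39.7 CPM at E85 (6.16-fold) and 141 CPM and 26.1 CPM (5.40-fold). SMOC2, a relative of SPARC, had 58.2 CPM and 13.1 CPM (4.45-fold). PRELP, a leucine-rich repeat gene like LUM, had 20.5 CPM and 54.2 CPM, 2.65-fold lower. EFEMP2 and LTBP4, both of elastic fibres, had 146 CPM and 52.8 CPM at E125 against 216 CPM and 67.3 CPM at E85.

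Of 8 measured collagens, 6 were higher and 0 lower, beside the same 17.8% and 12.2%, with a median of 2.00. COL14A1, a collagen on the fibril surface, had 204 CPM at E125 and 26.2 CPM at E85 (7.78-fold), the basement membrane collagens COL4A2 and COL4A1 189 and 192 CPM against 33.2 and 56.4 CPM, and COL6A3 187 CPM against 40.0 CPM (4.68-fold). COL6A2 and the fibrillar COL5A2 stayed within 2-fold, at 245 and 299.6 CPM against 153 and 211 CPM. Of 22 measured processing enzymes and inhibitors, 7 were higher and 1 lower, with a median of 0.40. The protease gene ADAMTS1 (3.74-fold), the protease inhibitor gene TIMP2 (3.30-fold) and the metalloprotease gene MMP23B (2.96-fold) were higher. VKORC1, an enzyme that recycles the vitamin K needed to activate matrix Gla protein, had 29.1 CPM at E125 and 79.2 CPM at E85, 2.72-fold lower.

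The collagen-maturing PCOLCE had 243 CPM in E125 stroma and 223 CPM in E85 stroma, and TIMP1, another inhibitor, 564 CPM and 661 CPM. Of 13 measured matrix receptors, 8 were higher and 0 lower, again beside 17.8% and 12.2%, with a median of 1.09. ITGA9 (3.68-fold), ITGAV (2.28-fold), ITGA8 (2.23-fold) and ITGB1 (2.12-fold), all integrin subunits, were higher, while the collagen receptor DDR1 and the syndecan SDC2 had 52.7 and 1049 CPM at E125 against 38.7 and 995 CPM at E85. Of 10 measured dissociation genes, 2 were higher and 4 lower, with a median of -0.50. In perivascular-like cells, 9 of 20 measured glycoproteins and proteoglycans were higher at E125 and 2 lower, with a median of 0.94, and 3 of 7 collagens were higher and 1 lower, with a median of 0.79, where all features had 0.23 and 22.9% of them were higher and 5.77% lower.

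The genes with the profile most like each of the 8 were found over 17 points, 1 for each class and library, among 4923 features, by Pearson's r of log2 CPM with 10 added. The points share 2 libraries and their class names, so r is a description. SPARC was closest to TIMP3, a matrix-bound protease inhibitor (0.98), and IGFBP7 (0.97), and MGP to the chemokine gene CXCL12 (0.92) and THBS1 (0.91). POSTN was closest to MRGPRF (0.92), FBLN1 to DZIP3 (0.93) and LTBP1 (0.92), and MFAP2 to PLAG1 (0.94) and CCL11 (0.90). LUM was closest to DCN (0.90) and TCF21, a transcription factor of mesenchyme (0.89), and ASPN to RND3 and OGN (0.86 each). P3H1 was among the 3 nearest to SPON2 (0.85). Also among the 3 nearest were ZNF532 for SPARC, CALD1 for MGP, ADAMTS4 for POSTN, LMF2 for FBLN1, PRSS35 for MFAP2, UNC5C for LUM, COL5A3 for ASPN and MICU3 for SPON2. Between the 8 genes themselves, r ran from 0.01 for SPON2 with MFAP2 to 0.76 for MGP with POSTN.

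The leucine-rich repeat genes have relatives beside them in the goat genome. In the RefSeq annotation of assembly ARS1.2, LUM lies between KERA and DCN, and ASPN between OMD and ECM2, with OGN beyond OMD. In stroma DCN had 3723 CPM at E125 and 3020 CPM at E85, and KERA, best known from the cornea, had 0.414 CPM and 0.849 CPM. OGN had 347 CPM at E125 and 227 CPM at E85, ECM2 32.6 CPM and 25.6 CPM, and OMD 1.38 CPM and 0 UMIs. LUM passed 2-fold downward at E125, whereas ASPN, DCN, OGN and ECM2 did not pass 2-fold in either direction. Sequences and coordinates were not used here.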

How the data were processed

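Single-cell RNA of fetal goat ovary was analysed from 1 library at E125 and 1 at E85. The files the authors deposited hold raw UMI counts, as whole numbers, for each gene and barcode. Cell Ranger 3.1 is named in the submitters' processing notes and 6.0.0 per the file headers, and the genome build is not given in the sources used here. Of 27271 features, 10655 carry no symbol.

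Barcodes with under 500 genes or over 20% mitochondrial UMIs were left out (809 at E125, 425 at E85), as were those with the highest Scrublet scores, 0.8% per 1000 barcodes (557, 6.67%, and 155, 3.53%), since the caller's own threshold marked almost none. Some doublets will remain. Cells were scaled to 10000 UMIs and logged, and 2000 variable genes without the 8 genes and the matrix lists, 30 principal components and 15 neighbours were used for Leiden clustering (scanpy 1.11.5, resolution 1) of both libraries without integration. A cluster of 15 or more cells took the class whose markers, as shares of their highest CPM in that library, averaged at least 0.3, with 3 or more at 0.25 and markers under 20 CPM left out. No annotation by the authors was used, so a difference from the study may come from these rebuilt names.

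CPM is a gene's UMI sum over the cells of a class in 1 library, scaled by that class's UMI total. Intervals are exact Poisson, conditional (ratios) or Clopper-Pearson (shares) at 95%, for counting error only. In a ratio a count of 0 was replaced by a floor of 3 UMIs in the class sum of the library. edgeR and DESeq2 served for scaling factors alone. Named genes were the 8, the 3 highest and 3 lowest ratios of each list with 50 CPM in at least 1 library, and the 3 nearest profiles of each gene, a few of which are not reported here. The genes, lists, markers and rules were chosen with earlier results of these data known.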

Additional observations from a re-analysis of the deposited data

Results flagged for a closer look

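MGP differed in direction between cell classes under the same comparison of stages. Its log2 ratio of E125 over E85 was 4.99 in stromal-like, 5.35 in pregranulosa-like, 3.50 in germ-cell-like and 1.08 in endothelial-like cells, but -2.14 in perivascular-like cells. In the germ-cell-like class the E85 count was 1 UMI, and median depth was 43526 UMIs at E125 and 4116 UMIs at E85. The pregranulosa-like value rests in part on the E125 cluster led by TOP2A, without which MGP had 26.7 CPM at E125 and 2.49 CPM at E85. LUM was lower at E125 in stromal-like cells, at -1.21, and in perivascular-like cells, at -1.60, and higher in pregranulosa-like cells, at 2.62, a value that rests on the same cluster. POSTN was lower in stromal-like cells, at -2.64, and higher in endothelial-like cells, at 1.53. The differences between classes were not tested, since each stage has 1 library.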

How the results depend on the processing

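The directions of all 8 genes in stroma were kept under each of the 11 or 12 settings run for a gene. The MGP ratio there ran from 26.9 to 39.9 and that of SPON2 from 29.5 to 51.7. POSTN was 5.29- to 14.9-fold lower, LUM 1.78- to 2.66-fold, MFAP2 2.34- to 2.82-fold and ASPN 1.35- to 5.00-fold lower. SPARC ran from 1.92 to 2.35 and passed 2-fold in 10 of 12 settings. In perivascular-like cells MGP was 3.84- to 4.53-fold lower. In stroma 728 of 10135 measured features were 4-fold higher and 214 were 4-fold lower. Of the 8 genes, 2 were 4-fold higher and 1 was 4-fold lower there. Their median log2 ratio, 0.04, was 0.20 with DESeq2 size factors, 0.17 at resolution 2 and -0.24 in the clusters with cells of both libraries, a setting chosen after seeing the data, so no direction is read from it. DESeq2 size factors moved the median of all features to 0.12. Features 2-fold higher in stroma numbered 1800, 2824 with no minimum of UMIs and 728 at 4-fold, and those lower 1232, 2263 with no minimum, 2444 at 1.5-fold and 214 at 4-fold. The 2 perivascular genes counted as higher were 1 in thinned cells and at 4-fold. The 2 counted as lower were 1 with a mean over cells, in thinned cells, at 4-fold, with the matrix genes kept for clustering, with each library clustered alone and with a stricter cell filter. With that filter 5 genes had their highest E125 class in stromal-like or perivascular-like cells instead of 7. No paired analysis was possible because each stage has 1 library.

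With 1 library per stage, age, animal and library cannot be told apart. Perivascular-like values at E85 rest on 32 cells, and SPON2 and MFAP2 could not be compared there at this depth.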

Other observations

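Clusters that took no class name also held some of the genes. E85 cluster 12, with 226 cells led by CCL21, HBAI and S100A13, had 172 CPM of MGP, above the 56.8 CPM of E85 stroma, and 90.0 CPM of LUM. E125 cluster 9, with 285 cells led by ERICH3, CPXM2 and CITED1, had 945 CPM of SPARC and 211 CPM of FBLN1, but 27.0 CPM of MGP and 6.70 CPM of SPON2.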
